A study of Drosophila melanogaster with 15 samples.

Results

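Neuropeptide precursor genes encode the secretory proteins that are cut into peptide messengers, and 36 of them were followed here in mushroom body (MB) nuclei of Drosophila melanogaster. The 36 genes were taken from a list of symbols and matched by current symbol to the FlyBase gene ID of each row. Of these, 35 had their ID among the 17559 genes of the count tables, and Nplp2 was not matched and is not analysed here. Of the 35, 27 had at least 1 read in at least 1 library and 8 were at 0 in all 15 libraries.

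Neuropeptides are made as precursors in the secretory pathway, cut by prohormone convertases, trimmed and often amidated, and released from dense core vesicles to act mostly on G-protein-coupled receptors. In the fly brain they carry signals on feeding, sleep, stress, water balance and memory. Kenyon cells (KCs), the intrinsic neurons of the MB, are known to make short neuropeptide F, and the amnesiac precursor was named for a memory mutant.

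RNA was sequenced from nuclei that carried the nuclear envelope tag unc84::GFP and were pulled with anti-GFP beads from homogenates of whole heads, in pools of 50 to 60 flies. The 15 libraries comprised 4 of trained and 4 of naïve controls, 4 of trained and 3 of naïve flies with knockdown of trithorax (trxKD). All flies were w* and carried UAS-unc84::GFP, UAS-Dicer2 and R14H06-Gal4, a driver of MB expression, so controls also had the tag, the driver and Dicer2. The trxKD flies carried in addition the RNAi line P{GD4502}v37715, the single knockdown line used, and the labels do not say what the training was, how long after it heads were taken, or the age or sex of the flies.

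The libraries held 14154045 to 45976562 reads on genes. CPM of the targeted gene trx lay between 561 and 609 in the 8 control libraries and between 499 and 550 in the 7 trxKD libraries. Its log2 fold change was −0.11 (SE 0.06) in naïve flies (edgeR adjusted p = 0.304) and −0.15 (SE 0.05) in trained flies (edgeR adjusted p = 0.0744). The second call was lost with upper-quartile scaling, at an adjusted p under 0.05 and without control library 2, 3 or 4 or trxKD library 1 or 4, with adjusted p from 0.0173 to 0.189 over all alternatives. The 12 KC markers listed were all counted, with a summed level of 12704 to 18015 CPM, but genes of other head cells were abundant too. Photoreceptor markers summed to 7959 to 16163 CPM and fat body markers to 2770 to 6651 CPM. The yolk protein gene Yp1 was at 142 CPM in trxKD trained library 4 and at 0.12 to 1.13 CPM in the other 14 libraries. In such bulk samples, fewer cells of a type and less RNA per cell cannot be told apart.

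The first question was which precursors were counted in MB nuclei at all. CPM here means reads on a gene scaled to a library of equal size (counts per 1000000 reads on genes) after TMM scaling, which corrects the library totals for a few genes that take many reads. A gene was called present if it reached 1 CPM in every naïve control library. By this rule 22 of the 35 precursors were present, and the same number reached 1 CPM in all 15 libraries. As genes of other head cells were abundant in these libraries too, a precursor called present need not be expressed in MB cells. At 10 CPM in all 15 libraries there were 15 precursors, and at 50 CPM there were 8. All 27 counted precursors together took 0.172% to 0.218% of the reads on genes, and sNPF and Nplp3 made up 49.5% to 59.8% of that sum.

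**Figure D1:**
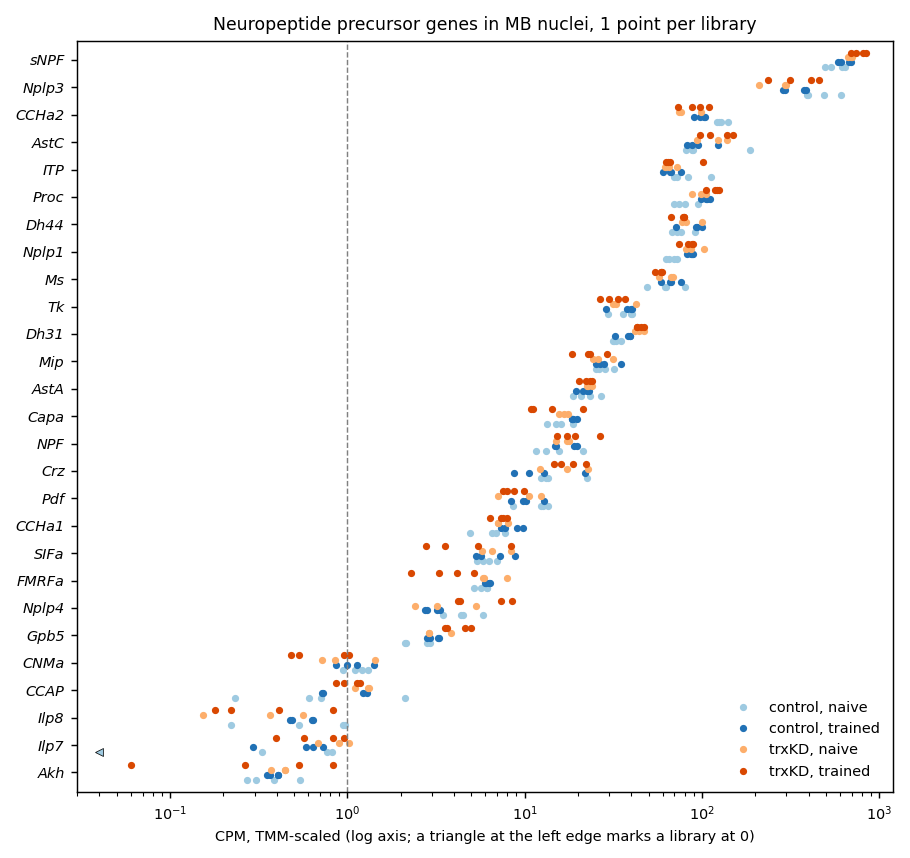
TMM-scaled CPM of the 27 counted precursors on a log axis, 1 point per library and 1 colour per group, ordered by the naïve control mean. The dashed line marks 1 CPM. sNPF and Nplp3 stood above 200 CPM in every library, while Ilp7, Ilp8, CCAP, CNMa and Akh scattered around or below the line.

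The 8 precursors at 0 were the insulin-like peptides Ilp2, Ilp3, Ilp5 and Ilp6, the diuretic peptide leucokinin (Lk), the feeding peptide Hugin (Hug), the cholecystokinin-like drosulfakinin (Dsk) and amnesiac (amn). Each of them lies wholly within the span of another annotated gene, 7 on the opposite strand to that gene and 1, Ilp2, on the same strand. Ilp2 and Ilp3 lie in CG32052, Ilp5 in CG43897, Ilp6 in Raf, Lk in CG34039, Hug in Octbeta3R, Dsk in CR33294 and amn in Hers.

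Over all annotated genes in the tables, 3181 of 3198 genes (99.5%) lying inside 1 other gene were at 0 in all 15 libraries. The same was true of 501 of 9173 genes (5.46%) that overlap no other gene and of 145 of 4882 (2.97%) that overlap another in part. Nested genes on the strand of the surrounding gene (1428 of 1438 at 0) and on the other strand (1662 of 1669) were alike in this. Nearly all nested genes thus received no read, and the 0 of these 8 precursors carries no information on whether they were expressed.

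**Figure D2:**
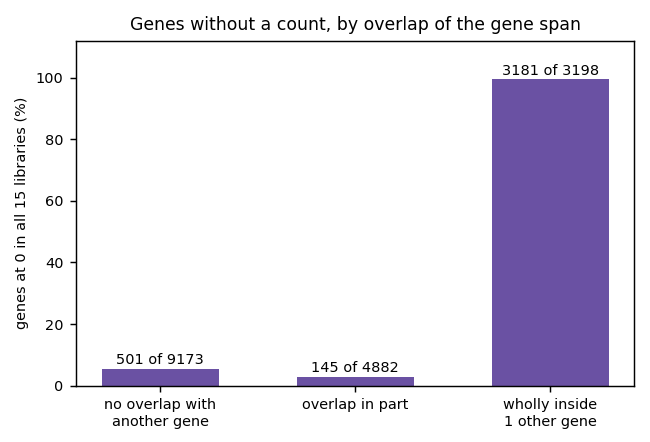
Share of annotated genes at 0 in all 15 libraries (percent, axis from 0), by how the gene span overlaps other genes. Genes inside 1 other gene were nearly all at 0 (3181 of 3198), and the 8 uncounted precursors belong to this class.

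Another 5 precursors were counted but fell under 1 CPM in some naïve control library. They were Ilp7 and Ilp8, which encode insulin and relaxin-like peptides, the ecdysis peptide CCAP, the metabolic hormone Akh and CNMa. Across the 15 libraries Ilp7 ranged from 0 to 1.03 CPM, Ilp8 from 0.15 to 0.97 and Akh from 0.06 to 0.83. Naïve control library 2 had 0 reads on Ilp7, which at its depth of 14154045 reads allows up to 0.202 TMM-scaled CPM (3 counts, counting error only). CCAP reached 2.11 CPM in naïve control library 4 and lay between 0.23 and 0.71 CPM in the other 3 naïve control libraries.

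Levels were compared between genes per kb of exon, using exon lengths of the BDGP6.54 annotation, which shares the dm6 coordinates that the submitters name. In naïve controls the order was led by Nplp3 with 877 ± 193 CPM per kb (SD, n = 4), a short gene for a neuropeptide-like precursor whose role is little known. It was followed by sNPF with 234 ± 27.9 CPM per kb. Next came AstC, the somatostatin-like allatostatin C, with 92.3 ± 41.8, and CCHa2, a nutrient-responsive hormone of gut and fat body, with 88.0 ± 5.58 CPM per kb. The spreads of AstC and CCHa2 overlapped, so their order is not fixed by these libraries. Ms, the muscle-inhibiting myosuppressin, stood at 54.0 ± 11.1 and Proc, the myoactive peptide proctolin, at 40.4 ± 5.71 CPM per kb, and the spreads of these neighbours overlapped as well.

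Of the 13426 genes with a count and an exon length, Nplp3 stood at the percentile 99.9 and sNPF at 99.1. The lowest present precursor per kb was Gpb5, at the percentile 50.4. Nuclear RNA holds introns. The zeros of genes lying inside others are as counting over whole gene spans would leave them, although the counting options are not given. In such counting a long intron would add reads. Per kb of the span that no other gene overlaps, a measure chosen after the data were seen, Nplp3 led again with 708 CPM per kb. ITP, the ion transport peptide, moved to place 2 with 31.7 CPM per kb, and sNPF, whose span of 28459 bases is the longest of the counted precursors, moved to place 6 with 20.2. In ITP, 87.6% of the span is overlapped by other genes, and in Tk, the tachykinin precursor, 37.5%.

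The precursors between these extremes are known from peptidergic neurons and endocrine cells outside the KCs. The diuretic hormones Dh44, related to corticotropin-releasing factor, and Dh31, related to calcitonin, ranged over all 15 libraries from 66.6 to 100.3 CPM and from 31.4 to 47.4 CPM. Tk lay between 26.7 and 42.4 CPM, the satiety peptide AstA between 18.7 and 27.0, and Mip, a ligand of the sex peptide receptor, between 18.4 and 35.1. NPF, a feeding and reward peptide, lay between 11.6 and 26.5 CPM and the diuretic precursor Capa between 10.9 and 21.3. Other such precursors are known from small sets of neurons. The stress hormone precursor Crz ranged from 8.66 to 22.7 CPM and the clock output peptide Pdf from 7.09 to 13.5. CCHa1 ranged from 4.91 to 9.81 and SIFa, a peptide of a few midbrain neurons, from 2.76 to 8.80. CPM is not scaled to gene length, so these ranges do not order the genes. Per kb of exon in naïve controls, Crz stood at 23.6 and Pdf at 17.4 CPM, above AstA at 15.4. SIFa at 11.7 and CCHa1 at 7.60 lay below AstA. The place of SIFa depended on the measure. Per kb of the span that no other gene overlaps, SIFa at 13.2 CPM stood above AstA at 4.94. By that measure Crz at 17.9 and Pdf at 17.4 CPM also stood above AstA, and CCHa1 stayed below it.

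Replicates of a group differed by more than counting error for many precursors. Among naïve controls the coefficient of variation (CV) was more than 3 times the counting CV in 12 of 27 precursors. The ratio of the 2 was highest for Nplp3, at 20.8 with a CV of 22.0%. AstC, with a ratio of 19.9, had the highest CV of the present precursors. Its CPM was 88.8, 87.4, 81.6 and 186 in naïve control libraries 1 to 4, and 123, 88.4, 94.9 and 82.1 in trained control libraries 1 to 4. Library 4 alone stood high, with a group CV of 45.2% against a counting CV of 2.28%. For Ms naïve control library 4 was also the highest, but library 3 stood low as well. Its values were 63.0, 61.9, 49.0 and 80.7 CPM in the naïve and 76.1, 66.9, 66.5 and 59.1 in the trained controls.

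Naïve control library 4 was the highest of its group in 13 of 27 precursors. It was also the highest in photoreceptor (16163 CPM), fat body (6651 CPM), KC (15101 CPM) and monoamine neuron markers (1199 CPM). It was the lowest in markers of muscle (4789 CPM), fast transmitter neurons outside the KCs (650 CPM) and olfactory receptor neurons (5.68 CPM). Trained control library 4 was the lowest of its group in 17 of 27. In trxKD flies the AstC values were 93.8, 139 and 123 CPM in naïve libraries 1 to 3 and 111, 149, 139 and 97.3 CPM in trained libraries 1 to 4. Neither AstC nor Ms passed the test in any of the 4 two-group comparisons. AstC was called higher in naïve trxKD flies with the replicate block or without naïve control library 4, which both take that library out of the fold change. In trained trxKD flies it was called higher with DESeq2 or without trained control library 1. Ms was called lower in trained trxKD flies with library-size scaling.

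Training was compared within each genotype by edgeR's quasi-likelihood test, with calls at an adjusted p under 0.1 over all genes tested. In control flies 3 of 26 tested precursors changed, beside 4.38% of the 9255 genes tested. Nplp1 and Proc rose, where 1.03% of all genes were called higher, and CCHa2 fell, where 3.35% were called lower. The median log2 fold change of the 26 was 0.06, and that of all genes was 0.00. Of the 26, 16 had a positive and 10 a negative value, beside 51.02% of all genes positive. An unadjusted p under 0.05 was found for 9 of the 26, beside 13.5% of all genes.

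Nplp1 (chromosome arm 2R, 25032377 to 25040377) encodes a precursor of several peptides, one of which activates the guanylate cyclase Gyc76C. Its CPM was 65.3, 72.6, 70.0 and 63.1 in naïve and 87.6, 89.2, 86.5 and 82.6 in trained control libraries. Every trained library stood above every naïve one, with a log2 fold change of 0.34 (SE 0.06, 1.27-fold, edgeR adjusted p = 0.0114). Leaving out any 1 library gave 0.31 to 0.37. In trxKD flies the values were 86.8, 103 and 81.1 CPM in naïve and 87.4, 88.7, 74.8 and 83.0 CPM in trained libraries. There the groups overlapped, with a log2 fold change of −0.11 (SE 0.10, edgeR adjusted p = 0.676).

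Proc (2L, 7864642 to 7871432) stood at 74.1, 69.7, 80.0 and 95.6 CPM in naïve and at 111, 107, 106 and 98.4 CPM in trained control libraries. The groups did not overlap, although naïve library 4 came close to trained library 4. Proc rose by 0.39 on the log2 scale (SE 0.09, 1.31-fold, edgeR adjusted p = 0.0381). The call was lost when trained control library 1, 2 or 3 or naïve control library 1 or 2 was left out, and with the replicate block. Over all alternatives the adjusted p ran from 0.000984 to 0.134. In trxKD flies Proc stood at 106, 98.5 and 88.1 CPM in naïve and 125, 121, 105 and 118 CPM in trained libraries. The groups overlapped there, with a log2 fold change of 0.27 (SE 0.08, edgeR adjusted p = 0.309).

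CCHa2 (3R, 13389059 to 13395197) had 121, 125, 128 and 140.0 CPM in naïve and 97.5, 103, 104 and 90.2 CPM in trained control libraries. All trained libraries lay below all naïve ones, with a log2 fold change of −0.39 (SE 0.07, edgeR adjusted p = 0.00673), and every alternative kept the call. In trxKD flies CCHa2 had 76.6, 74.6 and 98.8 CPM in naïve and 110, 73.6, 97.0 and 87.4 CPM in trained libraries, overlapping, with a log2 fold change of 0.15 (SE 0.14, edgeR adjusted p = 0.714).

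Nplp3 and Nplp4, both neuropeptide-like precursors without a well described receptor, did not pass the test in control flies although their groups did not overlap. Nplp3 (3L, 16318024 to 16318690) had 488, 397, 391 and 613 CPM in naïve and 375, 388, 288 and 293 CPM in trained controls. The lowest naïve library was only just above the highest trained one, and the log2 fold change of −0.50 (SE 0.14) narrowly missed the threshold (edgeR adjusted p = 0.101). It passed with DESeq2 (−0.51, DESeq2 adjusted p = 0.0152) and in edgeR without naïve control library 2 (−0.58, adjusted p = 0.0964) or 3 (−0.59, adjusted p = 0.0720), as well as with library-size scaling and without a filter, and over all alternatives the adjusted p ran from 0.0152 to 0.276.

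Nplp4 (2L, 2008414 to 2009072) had 4.39, 5.85, 4.48 and 3.45 CPM in naïve and 3.19, 3.35, 2.73 and 2.83 CPM in trained controls. Every trained value was lower, but naïve library 4 was close to the trained ones. On the log2 scale the difference was −0.59 (SE 0.18, edgeR adjusted p = 0.129). Without naïve control library 4 it was −0.70 and passed the threshold (edgeR adjusted p = 0.0316), as it did with DESeq2 (−0.59, DESeq2 adjusted p = 0.0671), and the adjusted p over all alternatives ran from 0.0316 to 0.397. Groups of 2 higher and 3 lower precursors did not overlap in control flies, beside 4.85% of all genes for higher and 5.06% for lower.

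Markers of other cells differed between the same control libraries. Fat body markers summed to 4744 to 6651 CPM in naïve and 3391 to 3633 CPM in trained controls, without overlap, and 3 of the 6 tested fell while none rose. None of the 8 fat body markers was at 0 in every library, and the most abundant, apolpp, was counted in each. Photoreceptor markers summed to 9668 to 16163 CPM in naïve and 8891 to 11149 in trained controls, with 1 of 7 lower. KC markers summed to 12704 to 15101 CPM in naïve and 13558 to 15226 in trained controls, and 0 of 12 were called by edgeR or reached an unadjusted p under 0.05. Of 7 tested monoamine neuron markers 2 rose. Over all genes 1.03% were called higher and 3.35% lower. Markers of fast transmitter neurons outside the KCs summed to 650 to 810 CPM in naïve and 823 to 895 CPM in trained controls, without overlap, and 1 of 3, Gad1, rose. The part of these cells in the precursors' changes was not tested.

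In trxKD flies 0 of 26 tested precursors were called by edgeR between trained and naïve flies, beside 0.534% of 9370 genes. At an unadjusted p under 0.05 there were 4 (sNPF, Nplp4, Proc and FMRFa), beside 12.0% of all genes, and DESeq2 called 0. The median log2 fold change of the 26 was −0.03, and that of all genes was 0.00. Of the 4 two-group comparisons this one had the fewest calls over all genes.

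FMRFa (2R, 9906294 to 9910457), the precursor of FMRFamide-related peptides that act on muscle and neurons, had 5.89, 7.93 and 5.86 CPM in naïve and 4.17, 3.30, 2.28 and 5.16 CPM in trained trxKD libraries. All trained libraries lay below all naïve ones, as in 5.22% of all genes, and no precursor was higher without overlap (6.79% of all genes). The log2 fold change was −0.82 (SE 0.25, edgeR adjusted p = 0.298). When all 15 libraries shared one fit the same change passed the threshold (edgeR adjusted p = 0.0694), and over all alternatives the adjusted p ran from 0.0694 to 0.819. In control flies FMRFa hardly differed, with 5.66, 5.18, 6.12 and 6.14 CPM in naïve and 6.26, 6.02, 6.35 and 6.02 CPM in trained libraries (log2 fold change 0.08, SE 0.11, edgeR adjusted p = 0.83).

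**Figure D3:**
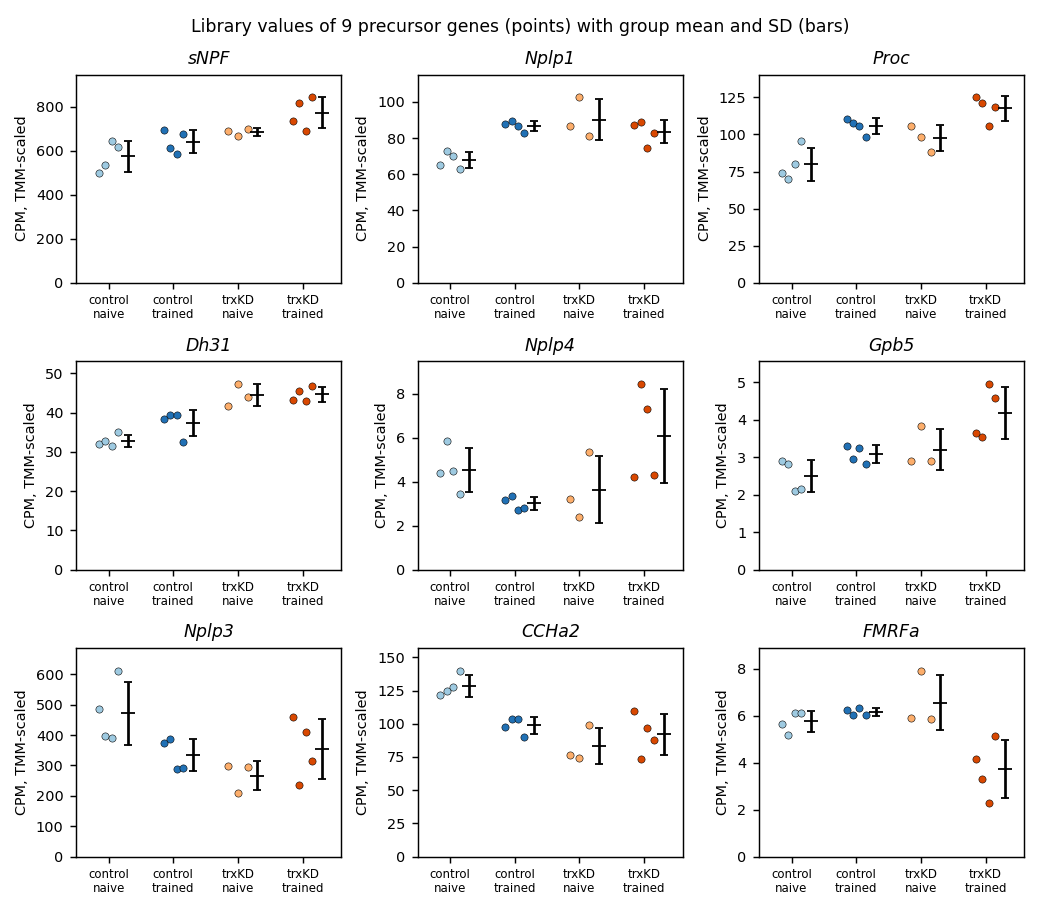
TMM-scaled CPM (axes from 0) of the 8 precursors called in any comparison and of Gpb5, whose trained groups did not overlap between genotypes. Points are libraries, and the bar beside each group gives the mean and SD. Nplp1 and Proc were higher and CCHa2 lower in trained than in naïve controls, and the trxKD naïve libraries of Nplp1, Dh31, Nplp3 and CCHa2 lay apart from the naïve controls.

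The genotypes were compared within naïve and within trained flies. These comparisons use the same libraries as the training comparisons, so a naïve control library that lies high or low moves both. In naïve flies 4 of 27 tested precursors differed between trxKD and control, beside 14.2% of the 9419 genes tested. Of the precursors 2 were higher (6.27% of all genes) and 2 lower (7.88%). The median log2 fold change was 0.11 for the 27 and −0.02 for all genes, and 18 of 27 were positive, beside 46.3% of all genes. Groups did not overlap for 3 higher and 2 lower precursors, beside 11.7% and 11.3% of all genes.

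Dh31 (2L, 8491868 to 8506845), the calcitonin-like diuretic hormone that also acts in sleep and temperature circuits, had 32.1, 32.8, 31.4 and 35.0 CPM in naïve control libraries. In naïve trxKD libraries it had 41.8, 47.4 and 44.0 CPM, all above all controls. This was a log2 fold change of 0.44 (SE 0.08, 1.35-fold, edgeR adjusted p = 0.0104), and every alternative kept this call. In trained flies it had 38.3, 39.4, 39.4 and 32.6 CPM in control and 43.3, 45.4, 43.0 and 46.9 CPM in trxKD libraries, again without overlap. There it was 0.25 on the log2 scale (SE 0.08, 1.19-fold, edgeR adjusted p = 0.0772). Dh31 was the only precursor called in both genotype comparisons. In trained flies the call was lost without any one of the 4 control libraries or trxKD library 4, with library-size scaling, without a filter, with the replicate block and at an adjusted p under 0.05, and the adjusted p ran from 0.0186 to 0.199 over all alternatives.

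Nplp1 was 1.34-fold higher in naïve trxKD than in naïve control libraries, whose values are given above. Every trxKD library was higher, and the log2 fold change was 0.42 (SE 0.09, edgeR adjusted p = 0.0201). Without trxKD naïve library 2, the highest, it was 0.31 and was no longer called (edgeR adjusted p = 0.106), and the adjusted p over all alternatives ran from 0.000785 to 0.106. In trained flies the groups overlapped, with a log2 fold change of −0.05 (SE 0.07, edgeR adjusted p = 0.668).

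Nplp3 had 297, 210 and 294 CPM in naïve trxKD libraries, all below the 391 to 613 CPM of naïve controls. Its log2 fold change was −0.82 (SE 0.17, edgeR adjusted p = 0.0160), and every alternative kept the call. In trained trxKD libraries the values were 459, 236, 410 and 315 CPM, on both sides of the trained controls, with a log2 fold change of 0.08 (SE 0.18, edgeR adjusted p = 0.824). CCHa2 was lower in naïve trxKD libraries too, by a log2 fold change of −0.62 (SE 0.10, edgeR adjusted p = 0.00771), without overlap and under every alternative. In trained flies it overlapped between genotypes (−0.10, SE 0.11, edgeR adjusted p = 0.598).

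sNPF (2L, 20027915 to 20056373), the peptide of the KCs, had 497, 537, 644 and 617 CPM in naïve control and 691, 665 and 700.3 CPM in naïve trxKD libraries. The groups did not overlap, as in 11.7% of all genes in this direction, but the log2 fold change of 0.26 (SE 0.09) missed the threshold (edgeR adjusted p = 0.104). In trained flies the values were 694, 611, 585 and 676 CPM in control and 737, 815, 692 and 845 CPM in trxKD libraries. These overlapped narrowly and were called, with a log2 fold change of 0.27 (SE 0.08, 1.20-fold, edgeR adjusted p = 0.0557). The trained call was lost without control library 2, 3 or 4 or trxKD library 4, with library-size scaling and at an adjusted p under 0.05. The naïve difference passed in 7 of 14 alternatives. They were DESeq2, upper-quartile scaling, no filter, the replicate block, one fit for all 15 libraries, and leaving out control library 3 (0.32, adjusted p = 0.0745) or 4 (0.30, adjusted p = 0.0182). The replicate block also takes control library 4 out of this fold change. Over all alternatives the adjusted p ran from 0.0126 to 0.163 in trained and from 0.00288 to 0.247 in naïve flies.

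Naïve control library 4 weighed on the count of calls in naïve flies. Without it 9 precursors were called in place of 4, the added ones being sNPF, NPF, AstC, CCAP and Proc, all higher in trxKD flies. Over all genes the count without it was 2558.

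In trained flies 4 of 26 tested precursors differed between genotypes, beside 13.9% of the 9237 genes tested. Of these, sNPF, Nplp4 and Dh31 were higher in trxKD flies (7.12% of all genes) and FMRFa was lower (6.78%). The median log2 fold change was 0.00 for the 26 and −0.03 for all genes. Of the 26, 13 were positive and 13 negative, beside 45.4% of all genes positive. This count shifted when single libraries were left out. It was 1 without control library 2 or 3, 2 without control library 4 or trxKD library 4, and 7 without trxKD library 1. The count over all genes, 1284 in the main fit, shifted as well, over the range given in the closing section.

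Nplp4 had 4.21, 8.46, 7.33 and 4.33 CPM in trained trxKD libraries, all above the 2.73 to 3.35 CPM of trained controls. Libraries 2 and 3 stood well above libraries 1 and 4. Nplp4 was 2.01-fold higher (log2 fold change 1.01, SE 0.24, edgeR adjusted p = 0.0298), the only precursor called under every alternative in this comparison. In naïve flies trxKD libraries had 3.20, 2.41 and 5.33 CPM and overlapped the controls, with a log2 fold change of −0.31 (SE 0.26, edgeR adjusted p = 0.513).

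FMRFa was lower in every trained trxKD library than in every trained control library, as 8.51% of all genes were, with a log2 fold change of −0.74 (SE 0.21, edgeR adjusted p = 0.0573). Leaving out any one of the 4 trained control libraries ended the call, and the adjusted p ran from 0.0151 to 0.132 over all alternatives. In naïve flies the groups overlapped, with a log2 fold change of 0.18 (SE 0.15, edgeR adjusted p = 0.514).

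Gpb5 (2L, 23311700 to 23312464) encodes the beta subunit of the fly glycoprotein hormone that binds the receptor Lgr1. It had 3.31, 2.94, 3.26 and 2.83 CPM in trained control and 3.64, 3.54, 4.96 and 4.59 CPM in trained trxKD libraries. The groups did not overlap (9.32% of all genes in this direction). The log2 fold change of 0.44 (SE 0.17) was not called (edgeR adjusted p = 0.126), and without trxKD trained library 2 it was 0.51 and was called (edgeR adjusted p = 0.0808). The same held without trxKD trained library 1, with an edgeR adjusted p = 0.0824. DESeq2 also called Gpb5 higher with no library left out. Over all alternatives the adjusted p ran from 0.0808 to 0.270. In naïve flies the values were 2.91, 2.83, 2.10 and 2.15 CPM in control and 2.89, 3.82 and 2.89 CPM in trxKD libraries, with a log2 fold change of 0.37 (SE 0.21, edgeR adjusted p = 0.299).

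**Figure D4:**
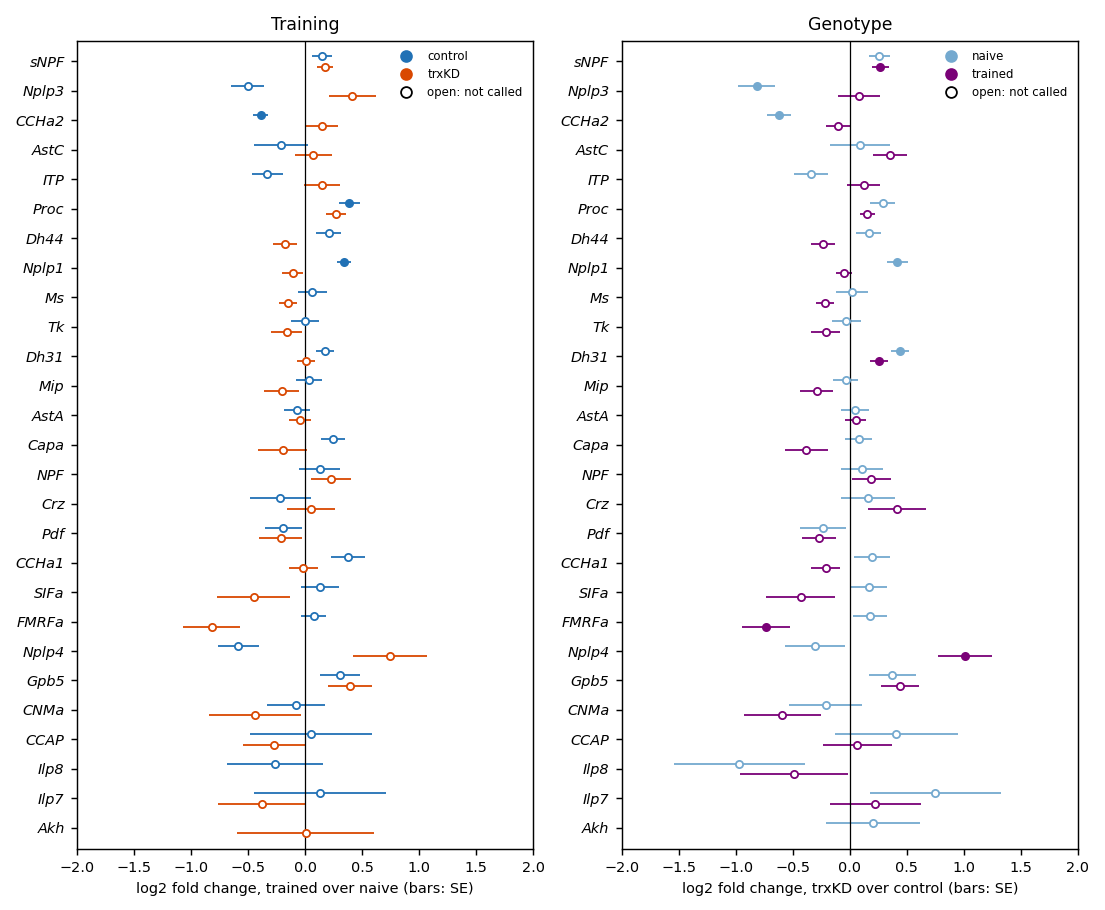
Log2 fold changes with their SE for the tested precursors, trained over naïve in each genotype (left) and trxKD over control in each treatment (right). Filled points were called at an adjusted p under 0.1. Most precursors lay within 0.5 of 0, and Nplp4 in trained flies had the highest value that was called, 1.01.

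Cell markers also differed between the genotypes. In naïve flies 2 of 12 KC markers were higher in trxKD libraries, while 2 of 7 fat body, 3 of 5 muscle and 2 of 5 glia markers were lower. There 3 of 7 monoamine neuron markers were higher and 1 lower, and 1 of 3 fast transmitter neuron markers was higher. Over all genes 6.27% were called higher and 7.88% lower in naïve flies. Fat body markers summed to 3815 to 4070 CPM in the trxKD naïve libraries, all below the naïve controls. In trained flies 7 of 12 KC markers were higher, with a sum of 15882 to 18015 CPM in trxKD and 13558 to 15226 CPM in control libraries, without overlap. In naïve flies KC markers summed to 14090 to 15097 CPM in trxKD and 12704 to 15101 CPM in control libraries, with overlap. The log2 fold change of sNPF was 0.26 in naïve and 0.27 in trained flies. Whether it followed the KC markers was not tested. Of the other lists in trained flies, 2 of 5 muscle, 3 of 4 olfactory receptor neuron, 1 of 5 glia and 1 of 7 photoreceptor markers were lower. There 2 of 7 fat body and 2 of 7 monoamine neuron markers were higher. Over all genes 7.12% were called higher and 6.78% lower in trained flies. The groups overlapped for every tested fat body marker, and Yp1, Yp2 and Yp3 on that list were high only in trxKD trained library 4. The part of these marker differences in those of the precursors was not tested.

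Whether training acted differently in the 2 genotypes was tested as an interaction over all 15 libraries. By edgeR 0 of 27 precursors passed, beside 0% of 9749 genes. At an unadjusted p under 0.05, beside 10.8% of all genes, there were 6 precursors. These were Nplp1 (−0.46, SE 0.11), Nplp3 (0.90, SE 0.28), Nplp4 (1.32, SE 0.38), CCHa2 (0.52, SE 0.16), FMRFa (−0.91, SE 0.27) and Dh44 (−0.40, SE 0.17), where the value is the training change in trxKD minus that in control flies on the log2 scale. DESeq2 called 1 of them, Nplp1 (−0.46, DESeq2 adjusted p = 0.0896). Without trxKD trained library 2, edgeR called Nplp1, Nplp3 and CCHa2, and 189 of all genes. Over all alternatives the adjusted p ran from 0.0800 to 0.707 for Nplp1, from 0.0605 to 0.707 for Nplp3 and from 0.0539 to 0.707 for CCHa2. Training changes that passed in control flies and not in trxKD flies were therefore not shown to differ between the genotypes.

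Nearly all receptors of these peptides were counted. Of 36 receptors listed, 35 were matched, 32 reached 1 CPM in all 15 libraries and 2, CNMaR and Gyc76C, were at 0 and lie inside other genes. Among 39 listed pairs of precursor and receptor, 28 had both genes counted and 23 had both at 1 CPM or more in every naïve control library.

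In control flies 2 of 33 tested receptors were called between trained and naïve, beside 4.38% of all genes. Lgr1, the glycoprotein hormone receptor, rose from 26.7 ± 1.26 to 44.9 ± 2.74 CPM (SD, n = 4 and 4, log2 fold change 0.74, edgeR adjusted p = 0.000273), and AkhR, the receptor of the adipokinetic hormone, fell (−0.56, edgeR adjusted p = 0.0525). In trxKD flies 2 of 33 rose, beside 0.342% of all genes called higher, Lgr1 from 33.4 ± 1.23 (n = 3) to 55.0 ± 5.19 CPM (n = 4, log2 fold change 0.72, edgeR adjusted p = 0.0148), and SIFaR, the SIFamide receptor (0.53, edgeR adjusted p = 0.0435). Every alternative kept the call of Lgr1 in controls. In trxKD flies it was lost without naïve library 1 or 2 and with the replicate block, and that of SIFaR without any naïve library or trained library 4, with the block and with library-size scaling. The call of AkhR was lost without trained library 1, 2 or 4 or naïve library 2 or 3 and with all 15 libraries in one fit. Gpb5, the ligand subunit of Lgr1, was not called in either training comparison.

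Between genotypes 14 of 33 receptors differed in naïve flies, 13 higher (beside 6.27% of all genes) and 1 (Lgr3) lower in trxKD libraries. In trained flies 6 of 33 were higher (beside 7.12% of all genes) and none was lower. Higher in both were Dh44-R2, Lgr1, TkR99D, CCAP-R and MsR1, which are 5 of the 14 and 5 of the 6. Of 14 alternatives in naïve flies, 14 kept the calls of Dh44-R2 and TkR99D, 12 that of Lgr1 and 7 those of CCAP-R and MsR1. There Dh44-R1 kept its call in 13, NPFR in 11, Lgr3 in 8 and AstC-R2, PK2-R2 and TkR86C in 7. Of 15 alternatives in trained flies, 13 kept the call of CCAP-R and 11 those of Dh44-R2 and SPR. The call of Lgr1 held in 9 and those of TkR99D and MsR1 in 8. The median log2 fold change of the receptors was 0.19 in naïve and 0.16 in trained flies, beside −0.02 and −0.03 for all genes.

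Receptors of the called precursors were looked at beside them. In naïve flies sNPF-R was higher in trxKD libraries, at 77.4 ± 3.82 CPM (n = 3) against 66.4 ± 2.25 (n = 4), with a log2 fold change of 0.22 (edgeR adjusted p = 0.0665). In trained flies, where sNPF itself was called, sNPF-R was at 72.0 ± 3.86 CPM in trxKD and 72.8 ± 3.26 CPM in control libraries (n = 4 and 4) and was not called. In naïve flies Dh31-R was at 72.5 ± 4.94 against 59.1 ± 3.47 CPM (0.30, edgeR adjusted p = 0.0407). CCHa2-R was at 10.8 ± 0.94 against 8.04 ± 1.29 CPM (0.43, edgeR adjusted p = 0.0908), while its ligand gene was lower. Single libraries ended each of these calls. Leaving out any library other than naïve control library 4 ended that of sNPF-R, and leaving out naïve control library 1 or naïve trxKD library 2 or 3 that of Dh31-R. That of CCHa2-R was lost without naïve control library 1 or 3 or any trxKD library. Proc-R and FMRFaR passed no test in any of the 4 comparisons.

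**Figure D5:**
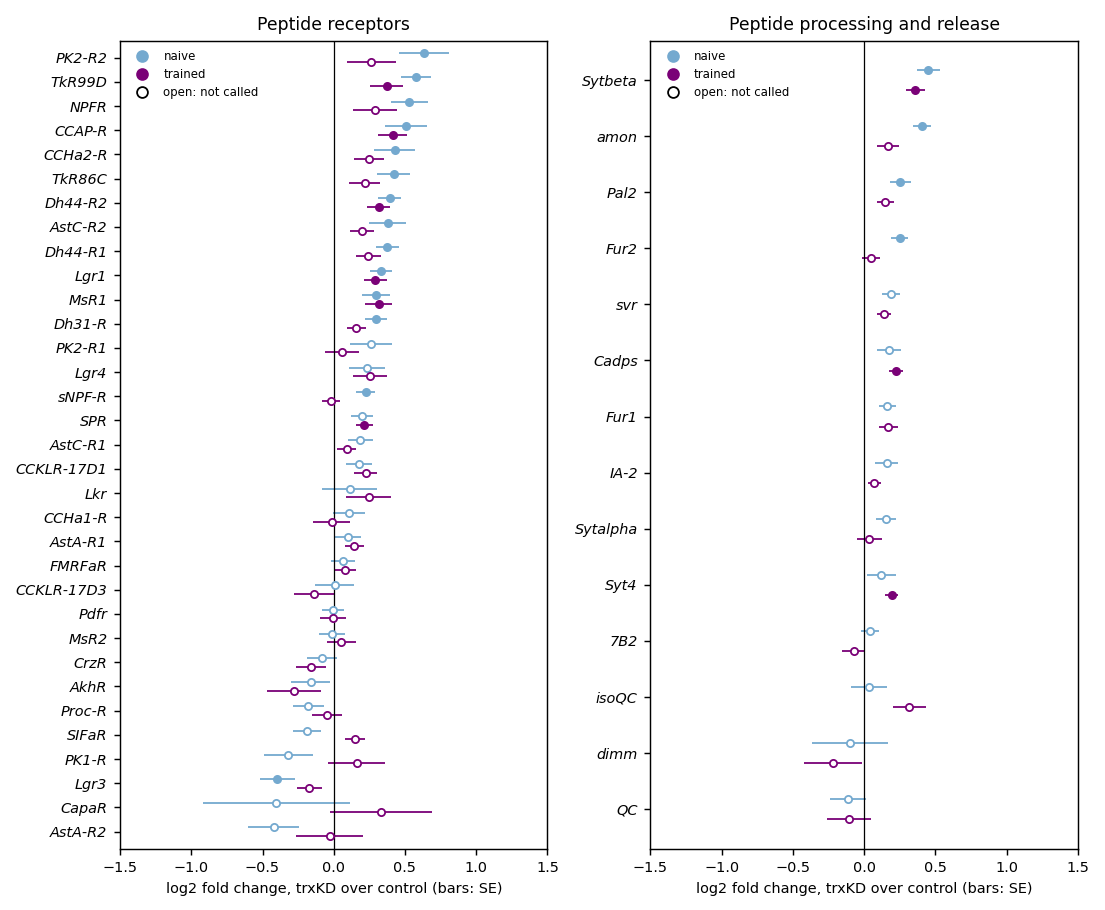
Log2 fold changes of trxKD over control, with SE, for tested receptors (left) and genes of peptide processing and release (right), in naïve and trained flies. Filled points were called. Of the receptors, 13 were called higher and 1 lower in naïve flies, and 6 higher in trained flies.

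Genes of peptide processing and release were counted as a list of 16, of which 14 were matched and tested. In control flies 3 rose with training (beside 1.03% of all genes) and none fell (3.35%). These were the prohormone convertase amon (0.26, edgeR adjusted p = 0.0412), the carboxypeptidase svr (0.25, edgeR adjusted p = 0.0257) and the amidating lyase Pal2 (0.22, edgeR adjusted p = 0.0686). Without naïve control library 1 none of these calls held, and the replicate block ended all of them too. Calls were also lost without naïve control library 2 (amon, Pal2) or 3 (Pal2) and without trained control library 1 (amon, Pal2), 2 or 3 (Pal2). amon went from 489 ± 24.1 to 590.4 ± 39.6 CPM (SD, n = 4 and 4). In trxKD flies edgeR called 0 of 14 between trained and naïve, beside 0.534% of all genes. At an unadjusted p under 0.05 there were 4, beside 12.0% of all genes.

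Between genotypes 4 of 14 were higher in naïve trxKD flies, beside 6.27% of all genes (amon, the furin Fur2, Pal2 and the synaptotagmin Sytbeta) and 3 in trained trxKD flies, beside 7.12% of all genes (Sytbeta, Syt4 and Cadps, a vesicle priming factor), with none lower. Sytbeta was called in both, at 152 ± 2.43 against 111 ± 11.4 CPM in naïve flies (log2 fold change 0.45, edgeR adjusted p = 0.0110) and 151 ± 8.29 against 118 ± 7.90 CPM in trained flies (0.36, edgeR adjusted p = 0.0142). The part of the neuronal markers that were higher in the same libraries was not tested.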

How the data were processed

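The authors deposited 1 table of whole-number read counts per gene for each of the 15 libraries, without normalization and by FlyBase gene ID. The submitters' processing notes name STAR 2.5.3a, HTSeq 0.7.1 and the genome build dm6; options are not given in the sources used here. Libraries were made with the Nugen Ovation Drosophila kit. Nearly all genes inside another gene were at 0, on either strand, as counting over whole gene spans without strand would leave them. What became of reads over 2 genes was not tested. The tag row Unc84 was left out of totals (0.437% to 0.681% of counts). Groups and replicate numbers came from the labels. Nothing says that the pools came from separate crosses, so p-values measure the spread between these libraries.

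Fits were run in edgeR 4.0.16 (R 4.3.3, limma 3.58.1), and DESeq2 1.42.0 served as an alternative. Genes passed filterByExpr (minimum count 10, minimum total 15), counts were TMM-scaled and each pair of groups was fitted on its own libraries by edgeR's quasi-likelihood test, with the interaction fitted on all 15. P-values were adjusted over all genes by Benjamini and Hochberg and called under 0.1. The code was tested on simulated data. All listed precursors are named, and full values are given for those called, those among the 6 highest per exon kb and those whose groups did not overlap. Precursors, receptors, processing genes and markers were chosen with earlier results of these data known. Alternatives were DESeq2, scaling by library size or upper quartile, an unfiltered fit, an adjusted p under 0.05, a replicate block, one fit for all libraries, other presence thresholds and leaving out each library.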

Additional observations from a re-analysis of the deposited data

Results flagged for a closer look

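Within each group of 4 libraries, the highest and lowest CPM of each counted precursor was compared with its neighbour. Of 81 such groups 6 had a library far from the other 3, and chance gives about 1 in 20. In naïve control library 4, AstC stood at 186 CPM (81.6 to 88.8 in the others) and Crz at 22.5 CPM (12.3 to 13.6). In trained control library 4, Dh31 stood at 32.6 CPM (38.3 to 39.4 in the others). In trxKD trained library 3, ITP stood at 101 CPM (62.6 to 66.0) and Ms at 54.4 CPM (58.4 to 59.2). In trxKD trained library 4, Dh44 stood at 66.6 CPM (78.7 to 79.6). The row of the nuclear tag Unc84, which no comparison used, held between 0.437% and 0.681% of all counts.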

How the results depend on the processing

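The number of precursors called kept within 1.5 times of its main value except as follows. For training in controls it was 3, and 5 with DESeq2. For training in trxKD flies it was 0, and 1 with all 15 libraries in one fit. For genotype in trained flies it was 4, and 1 at an adjusted p under 0.05. For the interaction it was 0, and 1 with DESeq2. Leaving out 1 library gave 2 to 4 for training in controls, 0 to 0 for training in trxKD flies, 3 to 9 for genotype in naïve flies, 1 to 7 in trained flies and 0 to 3 for the interaction, and 22 to 23 precursors present. Over all genes, training in trxKD flies gave 50 calls, and 244 with DESeq2, 91 with an unfiltered fit, 125 with all 15 libraries in one fit and 18 at an adjusted p under 0.05. That stricter threshold left 703 of 1333 genes in naïve and 721 of 1284 in trained flies, and DESeq2 called 24 interactions. Leaving out 1 library gave 230 to 711 genes for training in controls, 4 to 160 in trxKD flies, 330 to 2558 for genotype in naïve flies, 495 to 1808 in trained flies and 0 to 189 for the interaction. Of the precursors' fold changes given and those of the called receptors and processing genes and of trx, 1 changed sign, Nplp3 between genotypes in trained flies, which was −0.052 without trxKD trained library 1 and ran up to 0.23 without another. The cause of these shifts was not tested. Calls of precursors under 10 CPM (Nplp4, FMRFa) rest on few reads. Besides the replicate block, no other alternative moved a count by more than 1.5 times.

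Same-numbered libraries did not deviate together (correlations of −0.12 to 0.14, not all above 0.1 in any comparison), so the numbers were not taken as pairs. With a replicate block, the fits called 246 genes and 2 precursors for training in controls, 8 and 0 in trxKD flies, 2712 and 11 for genotype in naïve flies, 1371 and 4 in trained flies, and 0 and 0 for the interaction. Naïve trxKD flies have no library 4. In pairwise fits with this group, the block therefore gave library 4 of the other group its own term, and it added nothing to the fold change. There the block is not independent of leaving that library out.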
